A study of Mus musculus with 12 samples.

Results

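The nuclear genes for the proteins of the mitochondrial ribosome were examined in RNA from the gastrocnemius, the large muscle of the calf. Members were chosen by name and type, with earlier results of these data known. The rule took protein-coding genes whose symbol begins with Mrpl (large subunit) or Mrps (small subunit) followed by a number. This gave 78 of the 54532 genes listed. The muscles came from female ICR SCID mice, an immunodeficient strain, in 3 groups of 4 libraries stated as biological replicates. TL mice bore tumours of HT1080 cells, a line from a human fibrosarcoma, under the skin and were given selpercatinib, an inhibitor of the kinase RET, by gavage at 30 mg/kg once a day over 19 days. TV mice bore such tumours and were given vehicle, and NTV mice were tumour-free and given vehicle. All 3 groups share the strain and sex, and a group of tumour-free mice given selpercatinib was not analysed here. The series concerns cancer cachexia, in which muscle and fat waste in the presence of a tumour.

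Mitochondria translate the proteins encoded by their own genome on a ribosome of their own, and nearly all of those proteins are core subunits of the respiratory chain and the ATP synthase. The ribosomal RNAs are transcribed inside the organelle, whereas every protein of this ribosome is encoded in the nucleus, made in the cytosol and imported. Some of these proteins have a counterpart in the bacterial ribosome, and others are found only in mitochondria. Skeletal muscle depends on this machinery for its oxidative capacity, and human variants in several of the genes cause muscle, heart or brain disease.

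All but 1 of the genes were clearly detected. Libraries held between 14939830 and 23580603 reads in genes, and the 78 genes together took 0.262% to 0.360% of them. The 5 skeletal muscle markers Acta1, Ckm, Myh4, Tnnt3 and Mylpf summed to between 33590.00 and 68210.00 FPKM, so genes that define this tissue were abundant in every library. Mean levels of the 77 genes detected spanned 32.4-fold, with a median of 13.7 FPKM, and no library held fewer than 82 reads of any of them. The highest mean over the 12 libraries, 84.6 FPKM, belonged to Mrpl14, a protein near the interface of the subunits. Mrps21, Mrpl2 and Mrpl34 followed, at 72.5, 53.7 and 53.4 FPKM. The lowest mean among detected genes was that of Mrpl19, at 2.61 FPKM, next to Mrps35 at 2.93 FPKM and Mrps25 at 3.00 FPKM. Mrpl53 was listed at 0 reads in all 12 libraries, where 3 reads would have given 0.156 to 0.274 FPKM. In the reference annotation, 88.0% of the exon bases of Mrpl53 also belong to Gm42688 on the same strand, itself at a mean of 0.155 FPKM, so this value is uncertain. The spread within groups was small, with a median coefficient of variation per gene of 10.6% in TL, 10.5% in TV and 9.22% in NTV.

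In TV muscle, the presence of an untreated tumour went with lower levels of many mitochondrial ribosomal protein transcripts. Of the 77 genes tested, 34 fell, 1 rose and 42 were not called, at an adjusted p under 0.05 (limma, Benjamini-Hochberg over all 12754 genes tested). Over all genes, 11.5% were lower in TV than in NTV and 13.8% were higher. At an unadjusted p under 0.05 there were 47, beside 39.1% of all genes, and 25.2% of all genes were called in either direction. The median change was -0.28 on the log2 scale of FPKM + 0.5, beside 0.02 for all genes tested. In 38 of the 77, all 4 TV values lay below all 4 NTV values, which held for 12.7% of all genes; the opposite order was seen in 2, Mrps15 and Mrpl23, and in 14.4% of all genes. The falls were moderate: those called ran from -0.28 to -0.99, with standard errors over the 77 genes between 0.07 and 0.18. Because whole muscle was sequenced, fewer cells of a type and less RNA per cell cannot be told apart. The count of calls rested in part on single libraries: 35 genes were called in all, but 19 without NTV replicate 6, 20 without TV replicate 3 and 21 without NTV replicate 3, where 17.6%, 17.4% and 20.04% of all genes were called in either direction. It was 23 when libraries were scaled to an equal total FPKM, beside 17.4% of all genes. Over all genes, 1755 were higher and 1462 lower in TV, but 1174 and 2010 when the total of each library was made equal after leaving out mitochondrial genes and the 50 of highest level, a setting in which 46 members fell and 0 rose.

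**Figure D1:**
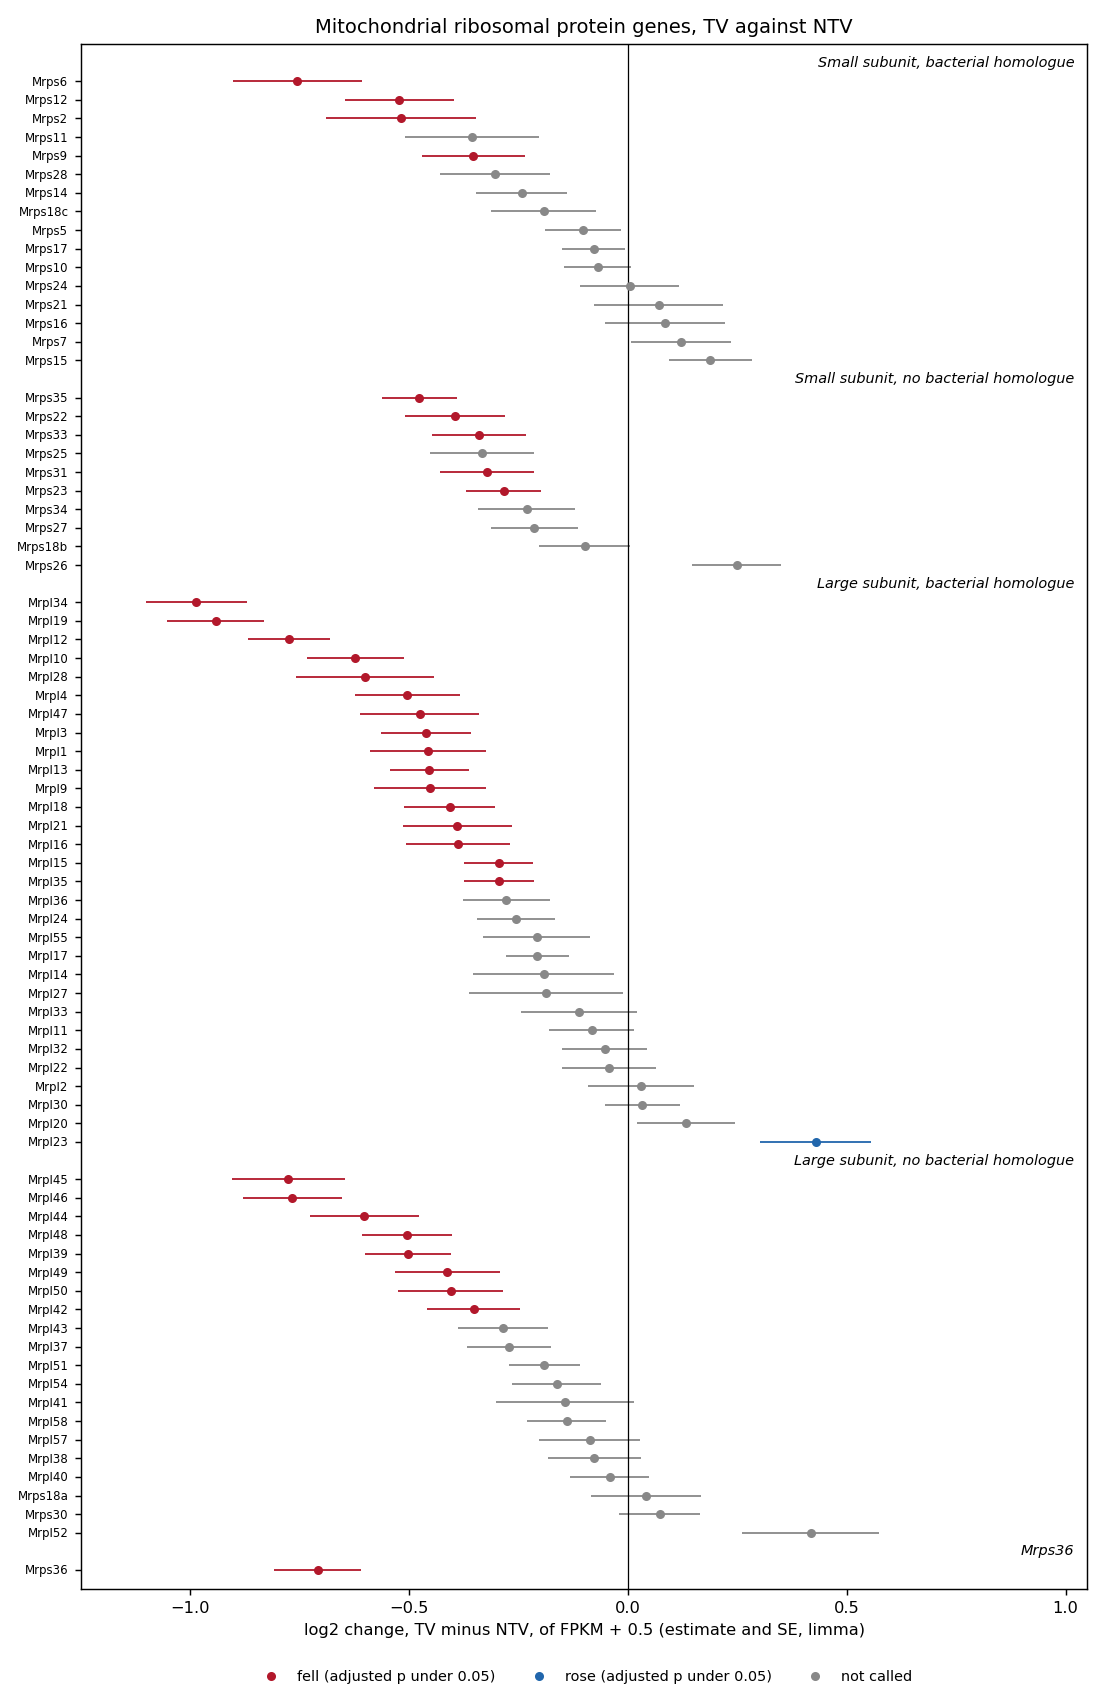
Change of each of the 77 tested genes in TV against NTV, as the log2 difference of FPKM + 0.5 with its standard error (limma, n = 4 per group), grouped by subunit and by whether the protein has a bacterial homologue. Red points fell (34 genes), the blue point rose (Mrpl23) and grey points were not called (42 genes). Most points lie left of 0 in every group, and Mrpl34 and Mrpl19 lie furthest left, at -0.99 and -0.94.

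The 5 largest falls were in the large subunit. Mrpl34 (ENSMUSG00000034880, chr8:71464959-71465747, plus strand), a small protein with a bacterial counterpart, had 43.96, 40.9, 50.1 and 42.7 FPKM in TL, 32.6, 41.7, 38.6 and 41.7 FPKM in TV, and 75.8, 84.3, 64.9 and 83.5 FPKM in NTV. Every NTV library was above every TL and TV library, and TV averaged 50.1% of the NTV mean (-0.99 ± 0.12, adjusted p = 0.000898). Mrpl19 (ENSMUSG00000030045, chr6:81957851-81965958, minus strand), whose bacterial counterpart lies between the subunits, had 2.78, 2.07, 2.62 and 2.39 FPKM in TL, 1.36, 1.92, 1.86 and 1.61 FPKM in TV, and 3.41, 3.74, 3.57 and 4.03 FPKM in NTV. Its groups did not overlap at all, with TV lowest, TL between and NTV highest, and TV was at 45.8% of the NTV mean (-0.94 ± 0.11, adjusted p = 0.000898). Of the exon bases of Mrpl19, 36.0% are shared with Gcfc2 on the opposite strand, which had a mean of only 0.346 FPKM, and whether the counting used strand is not given in the sources used here.

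Mrpl45 (ENSMUSG00000018882, chr11:97315716-97329920, plus strand) sits at the exit of the peptide tunnel and holds the ribosome to the inner membrane. It had 19.2, 15.1, 20.4 and 16.2 FPKM in TL, 12.1, 14.2, 17.2 and 16.5 FPKM in TV, and 24.3, 26.3, 23.9 and 28.8 FPKM in NTV. TV and NTV did not overlap (-0.78 ± 0.13, adjusted p = 0.00232), and the lowest NTV value exceeded the highest TL value. Mrpl46 (ENSMUSG00000030612, chr7:78775236-78783531, minus strand), a mitochondrial protein of the central protuberance, had 13.04, 11.96, 15.1 and 12.3 FPKM in TL, 8.99, 10.9, 11.1 and 10.03 FPKM in TV, and 18.04, 20.4, 14.8 and 18.2 FPKM in NTV. TV was lowest in every library, while NTV replicate 5 was just below the highest TL value (-0.77 ± 0.11, adjusted p = 0.00153 for TV against NTV). Of its exon bases, 12.2% are shared with Mrps11 on the opposite strand, itself at a mean of 8.47 FPKM.

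Of the 3 genes for the stalk of the large subunit, which recruits translation factors, 2 fell in TV. For comparison, 11.5% of all genes tested were lower in TV than in NTV. Mrpl12 (ENSMUSG00000039640, chr11:120484613-120489065, plus strand), the stalk protein itself, had 34.9, 33.7, 39.6 and 33.98 FPKM in TL, 27.5, 30.9, 26.8 and 29.5 FPKM in TV, and 49.1, 54.1, 43.2 and 51.8 FPKM in NTV. The 3 groups were fully separate, with TV lowest (-0.77 ± 0.09, adjusted p = 0.000911). Mrpl10 (ENSMUSG00000001445, chr11:97041560-97049213, plus strand), which anchors it, had 16.5, 13.6, 18.7 and 17.3 FPKM in TL, 12.5, 13.9, 16.3 and 14.98 FPKM in TV, and 22.5, 23.5, 20.4 and 23.2 FPKM in NTV. TV and TL overlapped each other and both lay below every NTV library (-0.62 ± 0.11, adjusted p = 0.00316 for TV against NTV). Mrpl11, at the base of the stalk, had 10.8, 11.6, 11.3 and 11.9 FPKM in TV, against 12.8, 13.4, 9.86 and 12.6 FPKM in NTV; the groups overlapped and it was not called (-0.08 ± 0.10, adjusted p = 0.566). The exon bases shared with an annotated gene on the opposite strand came to 13.1% for Mrpl12 and 14.1% for Mrpl10, in both cases with a gene near 0 FPKM.

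**Figure D2:**
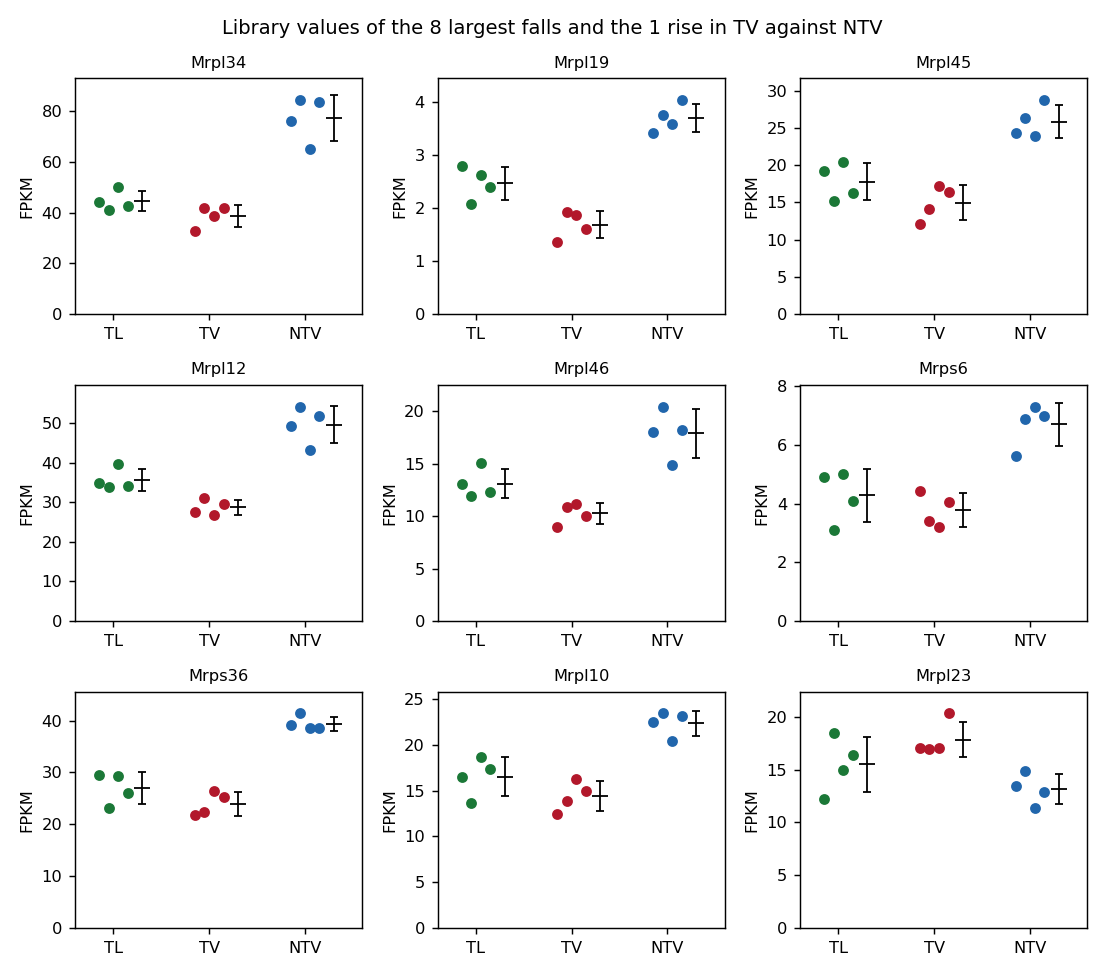
FPKM of 9 genes in each library, with TL, TV and NTV from left to right; points are libraries, and the bar beside them is the mean ± SD (n = 4). In the first 8 panels, every TV library lies below every NTV library, and Mrpl19 shows TL between TV and NTV. Mrpl23, the last panel, shows the opposite order of TV and NTV.

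Mrpl23 (ENSMUSG00000037772, chr7:142532686-142540747, plus strand), a protein beside the tunnel exit with a bacterial counterpart, was the only member that rose in TV. It had 12.2, 18.5, 14.98 and 16.4 FPKM in TL, 17.1, 16.9, 17.02 and 20.3 FPKM in TV, and 13.4, 14.8, 11.4 and 12.9 FPKM in NTV. TV lay above NTV in every library, TL spanned both, and TV replicate 8 stood above the other TV libraries (0.43 ± 0.13, adjusted p = 0.0291). The rise kept its direction but missed the threshold in 6 of the 12 fits that left out 1 library, those without NTV replicates 2, 5 or 6 or TV replicates 3, 4 or 8, with adjusted p up to 0.0780. The threshold was also missed with no filter on low values, and with mitochondrial genes and the 50 of highest level left out of the total. A processed pseudogene, Mrpl23-ps1, is listed separately at a mean of 3.30 FPKM, so the split of reads between them is uncertain. The next most positive changes were not called: Mrpl52, of the central protuberance, at 0.42 ± 0.16, adjusted p = 0.0690, and Mrps26, of the small subunit, at 0.25 ± 0.10, adjusted p = 0.0902.

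Promoters of some members are shown here because NRF1, GABP of the ETS family and YY1 are textbook regulators of nuclear genes for mitochondrial proteins. They were picked by hand: Mrpl34, Mrpl12, Mrpl45 and Mrpl46, among the largest falls, Mrps11 beside Mrpl46, and Mrpl23, which rose. The promoters of Mrps6, Mrps36 and Mrpl10, also among the largest falls, are not printed and held none of the 5 motifs. Each promoter is the stretch from 250 bases before to 50 bases after a transcription start in RefSeq (GRCm38.p6), 5′ to 3′ on the strand of the gene. Capitals mark matches to the NRF1 motif, CCGGAAG (ETS), AAGATGGCG (YY1), CACGTG (E-box, bound by Myc and related factors) or TNAAGGTCA (ERR), searched on both strands. Mrpl34 (chr8:71464676-71464975, plus strand) held an ETS match beginning at position -37 from the start.
Mrpl34: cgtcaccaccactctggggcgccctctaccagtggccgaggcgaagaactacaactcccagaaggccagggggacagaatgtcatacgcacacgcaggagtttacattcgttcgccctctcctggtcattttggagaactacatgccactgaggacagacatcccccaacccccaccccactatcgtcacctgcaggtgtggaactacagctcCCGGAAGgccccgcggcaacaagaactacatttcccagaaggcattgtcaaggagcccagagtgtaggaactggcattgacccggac
Mrpl12 (chr11:120484387-120484686, plus strand) held an NRF1 match at -81, and Mrpl45 (chr11:97315466-97315765, plus strand) held 3, at -120, -38 and 16.
Mrpl12: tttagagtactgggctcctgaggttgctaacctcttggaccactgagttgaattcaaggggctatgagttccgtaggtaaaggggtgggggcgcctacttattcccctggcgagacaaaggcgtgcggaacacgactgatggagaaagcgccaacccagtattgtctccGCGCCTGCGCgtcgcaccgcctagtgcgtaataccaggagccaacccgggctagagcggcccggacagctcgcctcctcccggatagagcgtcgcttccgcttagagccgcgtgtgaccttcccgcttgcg
Mrpl45: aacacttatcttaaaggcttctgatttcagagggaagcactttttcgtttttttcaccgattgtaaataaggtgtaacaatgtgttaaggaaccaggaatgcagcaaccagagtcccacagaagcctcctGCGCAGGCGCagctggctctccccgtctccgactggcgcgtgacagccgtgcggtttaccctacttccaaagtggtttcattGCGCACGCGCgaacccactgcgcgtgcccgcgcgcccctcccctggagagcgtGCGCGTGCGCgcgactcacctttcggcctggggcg
Mrpl46 (chr7:78783040-78783339, minus strand) and Mrps11 (chr7:78782881-78783180, plus strand) are transcribed away from each other, and their windows share 141 bases as reverse complements. The window of Mrps11 held a YY1 match at -108, outside the shared bases, and that of Mrpl46 held none of these letters.
Mrpl46: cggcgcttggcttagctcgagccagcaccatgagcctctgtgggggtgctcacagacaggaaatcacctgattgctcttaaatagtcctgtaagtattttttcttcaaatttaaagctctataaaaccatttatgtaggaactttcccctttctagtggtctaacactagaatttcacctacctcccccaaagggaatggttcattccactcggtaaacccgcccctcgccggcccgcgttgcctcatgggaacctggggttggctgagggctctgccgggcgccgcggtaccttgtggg
Mrps11: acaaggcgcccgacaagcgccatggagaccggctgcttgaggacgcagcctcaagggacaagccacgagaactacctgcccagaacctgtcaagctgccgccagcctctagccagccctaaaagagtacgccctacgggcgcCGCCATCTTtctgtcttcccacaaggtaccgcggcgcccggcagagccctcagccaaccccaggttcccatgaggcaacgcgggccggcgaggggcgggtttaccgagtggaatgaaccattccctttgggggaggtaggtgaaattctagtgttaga
Mrpl23 (chr7:142532782-142533081, plus strand), the gene that rose, held none of the 5 motifs.
Mrpl23: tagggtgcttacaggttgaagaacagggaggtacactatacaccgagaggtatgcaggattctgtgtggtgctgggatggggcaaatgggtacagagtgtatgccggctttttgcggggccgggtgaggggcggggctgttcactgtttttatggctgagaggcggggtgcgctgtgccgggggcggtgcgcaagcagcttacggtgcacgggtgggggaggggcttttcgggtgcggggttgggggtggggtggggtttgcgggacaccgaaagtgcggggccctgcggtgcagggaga
Mrpl46 fell by 0.77 on the log2 scale, whereas Mrps11, a small subunit protein with a bacterial counterpart, was at -0.36 ± 0.15 and not called (adjusted p = 0.105); the difference between them was not tested.

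RefSeq gave 75 promoters for 69 of the 78 genes. Mrps34, Mrpl13, Mrpl38, Mrpl54, Mrpl15, Mrps35, Mrpl4, Mrps28 and Mrpl19 were not matched. The ETS letters stood in 34.7% of these promoters, in 17.5% of the promoters of all genes tested and in 8.86% of all 32851 promoters. The NRF1 letters stood in 17.3%, against 10.1% of those of genes tested and 4.60% of all, and the YY1 letters in 10.7%, against 3.13% and 1.40%. E-boxes stood in 9.33% of members' promoters, against 10.1% of those of genes tested and 7.15% of all. The ERR letters were in none of the 75, against 0.77% of those of genes tested and 1.28% of all. ETS and YY1 letters stood together in 2 promoters and overlapped in neither. Some genes have several windows in this table, which can overlap: 3 of the 7 member windows with an E-box are those of Mrpl2. Counted by gene, ETS letters were in 9 of the 29 members that fell in TV and in 16 of the 38 not called. NRF1 letters were in 6 and 7, YY1 letters in 2 and 6, and E-boxes in 0 and 5. Among the 8949 genes tested that had a promoter, the counts were 1834 for ETS, 1066 for NRF1, 342 for YY1 and 1075 for E-boxes. The differences between members that fell and those not called were not tested. Median GC content was 58.7% in members' promoters, 60.7% in those of genes tested and 52.7% in all. These matches describe letters in a window and no binding was measured.

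In TV against NTV, 11.5% of all genes tested were lower and 13.8% higher, beside each count in this paragraph. Proteins of the large subunit fell in TV in 24 of 50 cases and those of the small subunit in 9 of 26. The median changes were -0.28 and -0.24. Proteins with a bacterial counterpart fell in 20 of 46 cases, and those found only in mitochondria in 13 of 30. By both criteria, the conserved proteins of the small subunit had the fewest falls, 4 of 16 with a median of -0.15, against 5 of 10 for the mitochondrial proteins of the small subunit (-0.30), 16 of 30 for conserved proteins of the large subunit (-0.295) and 8 of 20 for mitochondrial proteins of the large subunit (-0.23). These differences between classes were not tested. Around the tunnel exit, 2 of 6 fell (Mrpl45 and Mrpl47) and Mrpl23 rose. In the central protuberance, 3 of 8 fell (Mrpl18, Mrpl46 and Mrpl48). A processed pseudogene, Mrpl48-ps, is listed at a mean of 6.09 FPKM, above Mrpl48 itself at 3.79 FPKM, so the value of Mrpl48 is uncertain. Mrpl18 shares 10.1% of its exon bases with Tcp1 and Mrpl47 13.9% with Ndufb5, both on the opposite strand and at means of 34.96 and 45.9 FPKM. By level, 13 of the 26 genes of lowest mean FPKM fell, 10 of the 25 in the middle and 11 of the 26 of highest.

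In the small subunit, Mrps6 (ENSMUSG00000039680, chr16:92058270-92112227, plus strand) fell furthest. It had 4.91, 3.11, 5.02 and 4.08 FPKM in TL, 4.44, 3.39, 3.20 and 4.04 FPKM in TV, and 5.61, 6.88, 7.30 and 6.98 FPKM in NTV. Every NTV library was above every TL and TV library, which overlapped (-0.76 ± 0.15, adjusted p = 0.00464 for TV against NTV). Mrps6 shares 10.4% of its exon bases with Slc5a3 and 19.9% with Gm49711, both on the same strand and both under 1 FPKM. Mrps12, a protein of the decoding centre, had 17.9, 16.4, 20.4 and 17.7 FPKM in TL, 16.02, 15.2, 21.1 and 21.8 FPKM in TV, and 26.7, 28.1, 23.9 and 27.4 FPKM in NTV. TL and TV overlapped, and both lay below all 4 NTV libraries (-0.52 ± 0.12, adjusted p = 0.0116 for TV against NTV). Mrps35, found only in mitochondria, had 3.12, 2.69, 3.38 and 2.85 FPKM in TL, 2.05, 2.40, 2.45 and 2.46 FPKM in TV, and 3.40, 3.43, 3.41 and 3.55 FPKM in NTV, and the 3 groups were separate, with TV lowest (-0.48 ± 0.09, adjusted p = 0.00327 for TV against NTV). The 2 genes of highest mean level were not called: Mrps21 averaged 69.6 ± 10.9 FPKM in TL, 75.7 ± 10.5 FPKM in TV and 72.1 ± 10.2 FPKM in NTV (SD, n = 4 each; 0.07 ± 0.15, adjusted p = 0.761 for TV against NTV), and Mrpl14 averaged 81.3 ± 9.87 FPKM in TL, 80.6 ± 15.5 FPKM in TV and 91.9 ± 16.1 FPKM in NTV (-0.19 ± 0.16, adjusted p = 0.407).

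The 3 paralogues of bacterial protein S18 were not called in any comparison. In TV against NTV, Mrps18c, which takes the place of the bacterial protein, was at -0.19 ± 0.12, adjusted p = 0.260. Mrps18b, elsewhere in the small subunit, was at -0.10 ± 0.10, adjusted p = 0.519, and Mrps18a, which belongs to the large subunit in spite of its name, at 0.04 ± 0.13, adjusted p = 0.845. Mrps18b shares 30.5% of its exon bases with an antisense gene and Mrps18c 23.2% with an unverified transcript on its own strand.

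Mrpl44, Mrpl3, Mrps22 and Mrps16 were picked by hand from the genes known for inherited disease in humans. They do not stand for disease genes as a class, and 11.5% of all genes tested were lower in TV than in NTV. Mrpl44, a protein with a ribonuclease fold, had 17.4, 14.1, 20.3 and 14.3 FPKM in TL, 13.6, 17.6, 15.05 and 16.4 FPKM in TV, and 22.02, 25.5, 22.7 and 25.6 FPKM in NTV. TL and TV overlapped, and both lay below every NTV library (-0.60 ± 0.12, adjusted p = 0.00607 for TV against NTV). Mrpl3, near the catalytic centre, had 6.04, 6.20, 7.21 and 6.25 FPKM in TV, against 9.09, 9.04, 8.66 and 9.28 FPKM in NTV, without overlap (-0.46 ± 0.10, adjusted p = 0.00835). Mrps22 had 3.05, 3.84, 3.79 and 3.27 FPKM in TV, against 4.24, 4.75, 4.39 and 5.63 FPKM in NTV, again without overlap (-0.40 ± 0.11, adjusted p = 0.0265), but its call ended without NTV replicate 3, NTV replicate 6 or TV replicate 3, with adjusted p up to 0.0760. Mrps16 overlapped fully and was not called, at 0.08 ± 0.14, adjusted p = 0.690.

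Mrps36 matches the naming rule but is no longer regarded as a ribosomal protein; it links the subunits of the 2-oxoglutarate dehydrogenase complex of the citric acid cycle. It fell in TV, with 29.6, 23.1, 29.3 and 25.98 FPKM in TL, 21.7, 22.3, 26.5 and 25.3 FPKM in TV, and 39.2, 41.4, 38.5 and 38.5 FPKM in NTV. The 4 NTV libraries were close together and far above every other library (-0.71 ± 0.10, adjusted p = 0.00135). Of the 3 processed pseudogenes named after it, the highest had a mean of 1.53 FPKM, against 30.1 FPKM for Mrps36.

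Selpercatinib in tumour-bearing mice was not followed by a called change in any mitochondrial ribosomal protein gene. In TL against TV, limma called 0 of 77, beside 0.517% of all genes tested in either direction (0.235% higher and 0.282% lower), and voom on the recovered reads also called 0. At an unadjusted p under 0.05 there were 8, beside 16.1% of all genes, and the smallest adjusted p was 0.102. The median change was 0.09, beside 0.00 for all genes. In 6 genes, Mrpl19, Mrpl12, Mrpl46, Mrpl39, Mrps35 and Mrpl13, all 4 TL values lay above all 4 TV values, which held for 3.36% of all genes, and in 0 genes did all 4 lie below, against 4.05%. Without TL replicate 4, 1 gene was called, Mrpl19, which was then higher in TL, beside 2.21% of all genes called (110 higher and 172 lower). Over all genes, 30 were higher and 36 lower in TL than in TV, but 30 and 10 at an equal total FPKM, and 40 and 23 with mitochondrial genes and the 50 of highest level left out of the total. The median of members moved to 0.04 without TL replicate 5, to 0.05 without TV replicate 3 and to 0.02 without the 3 libraries with Ucp1 above 2 FPKM. It was 0.16 at an equal total FPKM, 0.13 with quantile normalization and 0.17 with mitochondrial genes and the 50 of highest level left out of the total.

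The most positive values in TL against TV were those of Mrpl19, at 0.44 ± 0.11, adjusted p = 0.102, of Mrpl13, at 0.33 ± 0.09, adjusted p = 0.124, and of Mrpl46, at 0.33 ± 0.11, adjusted p = 0.191. Mrpl13, a large subunit protein with a bacterial counterpart, had 4.89, 5.18, 6.14 and 4.69 FPKM in TL, 3.73, 4.05, 4.23 and 4.09 FPKM in TV, and 5.60, 5.96, 5.28 and 5.96 FPKM in NTV; TL lay above TV throughout and overlapped NTV. The most negative values were those of Mrpl23, at -0.21 ± 0.13, adjusted p = 0.447, of Mrps16, at -0.20 ± 0.14, adjusted p = 0.515, and of Mrpl52, at -0.18 ± 0.16, adjusted p = 0.611. Mrps16 values were close together in TL, with 9.54, 9.72, 9.48 and 9.49 FPKM in TL, 9.33, 10.5, 10.95 and 13.9 FPKM in TV, and 9.60, 12.5, 8.25 and 11.7 FPKM in NTV; the TL values lay inside the range of both other groups.

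Against tumour-free mice, part of the family was also lower in TL muscle. In TL against NTV, 10 of 77 genes fell and 0 rose, beside 4.62% lower, 4.19% higher and 8.81% in either direction over all genes tested; at an unadjusted p under 0.05 there were 31, beside 27.5%. The median change was -0.20, beside 0.02 for all genes. All 4 TL values lay below all 4 NTV values in 18 genes, against 10.1% of all genes. The comparisons share the NTV libraries, and TL against TV shares the TV libraries with TV against NTV, so their values are given side by side and not as independent results. The count fell to 3 without NTV replicate 6, TL replicate 4 or TL replicate 7, to 4 without NTV replicate 3 and to 6 without NTV replicate 2. Over all genes, 4.41%, 4.03% and 4.20% were called in either direction in the first 3 of these fits, and 5.57% and 4.80% in the others. The 3 members called there all fell, and 309, 284 and 297 of the 12754 genes tested were lower in TL. Against calls in either direction 3 of 77 was no larger a share, and against genes lower in TL alone it was larger. Of the 16 tested members that share over 10% of their exon bases with another gene, 5 fell (Mrps6, Mrpl10, Mrpl12, Mrpl19 and Mrpl46), and of the other 61, 5 fell, or 8.20%. With libraries at an equal total FPKM the count was 5, beside 5.72% of all genes called in either direction. The median was then -0.07, a scaling that moved the median of all genes by 0.11. Relative to all genes, the median of members was -0.20 with this scaling and -0.23 without. Over all genes this scaling gave 459 higher and 270 lower in TL, against 534 and 589 without it.

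Mrpl34 fell furthest in TL against NTV (-0.78 ± 0.12, adjusted p = 0.00398), beside -0.99 ± 0.12, adjusted p = 0.000898 in TV against NTV. Mrps6 fell by 0.60 (adjusted p = 0.0284), Mrps36 by 0.54 (adjusted p = 0.0096), Mrps12 by 0.54 (adjusted p = 0.0227) and Mrpl45 by 0.54 (adjusted p = 0.0264). Mrpl44 fell by 0.53 (adjusted p = 0.0236) and Mrpl19 by 0.50 (adjusted p = 0.0192), the second beside -0.94 in TV against NTV. Mrpl12 fell by 0.47 (adjusted p = 0.0130), beside -0.77 in TV against NTV. Mrpl10 and Mrpl46 both fell by 0.43 (adjusted p = 0.0340 and 0.0362), beside -0.62 for Mrpl10 and -0.77 for Mrpl46 in TV against NTV. Only Mrpl34 and Mrps36 of these 10 stayed called in every fit that left out 1 library and in all 12 other settings apart from the replicate block. The most positive values, none called, were those of Mrps26 (0.24), Mrpl52 (0.23) and Mrpl23 (0.22).

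**Figure D3:**
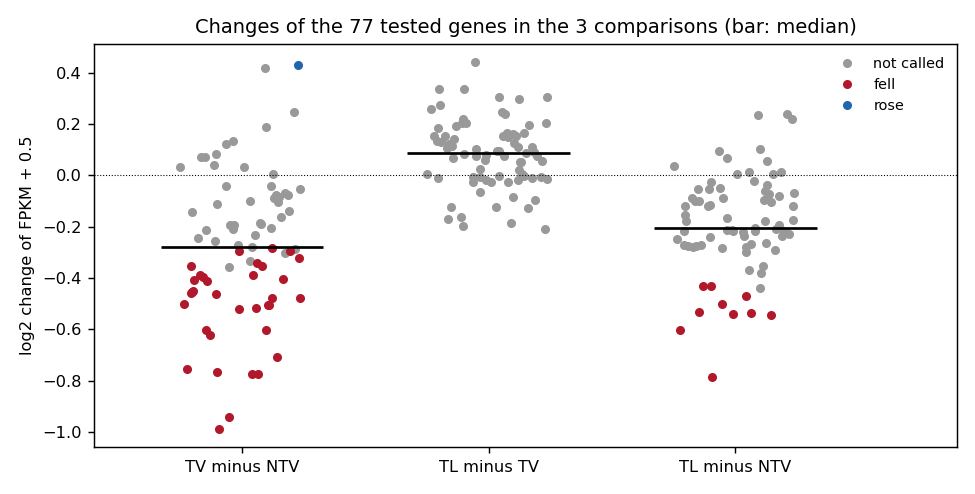
Log2 change of FPKM + 0.5 of each of the 77 tested genes in the 3 comparisons; points are genes, spread sideways for visibility, and horizontal bars are medians. The medians are -0.28 in TV against NTV, 0.09 in TL against TV and -0.20 in TL against NTV, and coloured points are called (35, 0 and 10 genes).

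The median of the 77 genes in each library, as log2 difference from the NTV mean, was -0.22, -0.24, -0.07 and -0.24 in TL replicates 1, 4, 5 and 7, and -0.33, -0.24, -0.27 and -0.21 in TV replicates 3, 4, 6 and 8. It was -0.02, 0.09, -0.12 and 0.06 in NTV replicates 2, 3, 5 and 6. Thus all 4 TV libraries and 3 of the 4 TL libraries lay below every NTV library, while TL replicate 5 lay above NTV replicate 5. The summed level of the family was 1382, 1360, 1569 and 1380 FPKM in TL, 1270, 1376, 1342 and 1481 FPKM in TV, and 1620, 1791, 1462 and 1716 FPKM in NTV. By this measure the highest TV library, replicate 8, and TL replicate 5 overlapped NTV replicate 5.

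**Figure D4:**
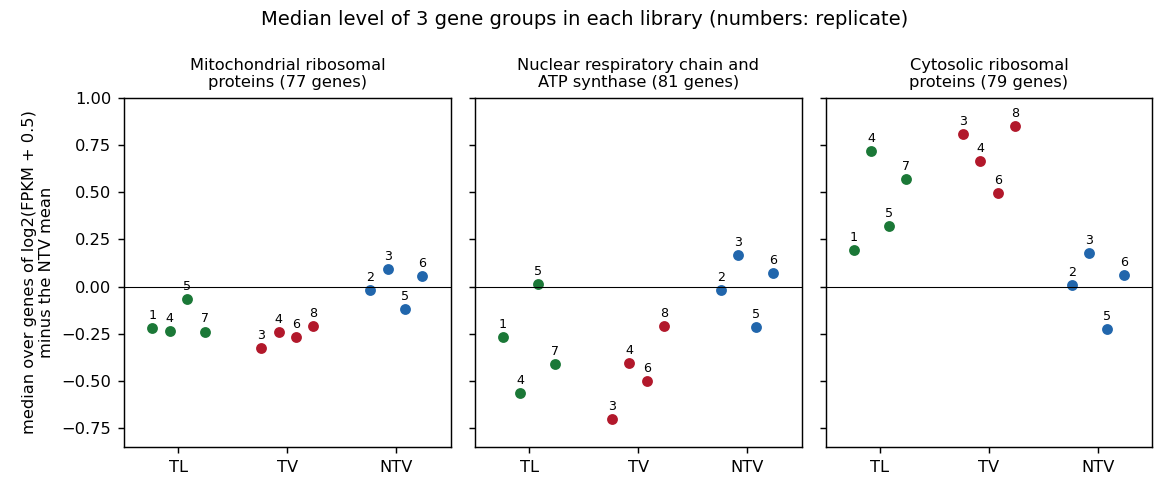
Median over genes of the log2 difference of FPKM + 0.5 from the NTV mean, for mitochondrial ribosomal proteins (77 genes), nuclear genes of the respiratory chain and ATP synthase (81 genes) and cytosolic ribosomal proteins (79 genes), in each library; numbers are replicates and groups run TL, TV, NTV. The first 2 panels lie mostly below 0 in TL and TV, with TL replicate 5 nearest 0, whereas the third lies above 0 in every TL and TV library.

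Other features of the libraries are given here by group. Reads of the mitochondrial genome made up 10.1%, 6.04%, 13.9% and 6.55% of all reads in TL, 5.08%, 7.70%, 6.60% and 6.72% in TV, and 11.6%, 12.2%, 12.5% and 13.5% in NTV, so that TL replicates 1 and 5 were closest to NTV. For the markers below, 11.5% of all genes tested were lower in TV than in NTV and 13.8% were higher. Markers of tenocytes, the cells of tendon, fell in TV in 4 of 5 cases. The fifth went the other way, at 1.12 on the log2 scale with an unadjusted p under 0.05, and was not called. The summed level of the 5 was 18.5 to 43.4 FPKM in TL, 16.97 to 41.1 FPKM in TV and 60.7 to 114 FPKM in NTV. Markers of fibro-adipogenic cells, the fibroblast-like cells of muscle, fell in 3 of 5, with sums of 34.02 to 58.6 FPKM in TL, 43.01 to 76.8 FPKM in TV and 74.9 to 95.4 FPKM in NTV, and endothelial markers in 2 of 5, with sums of 35.4 to 50.2 FPKM in TL, 42.2 to 54.5 FPKM in TV and 59.5 to 82.5 FPKM in NTV. No marker of skeletal muscle (5 genes), slow fibres (6), macrophages (5 tested) or erythroid cells (3) was called in TV against NTV. Summed slow fibre markers ranged from 770 to 1330 FPKM in TL, 152 to 1656 FPKM in TV and 376 to 978 FPKM in NTV. Their median change was 0.25 in TV against NTV, 0.51 in TL against TV and 0.78 in TL against NTV. All 6 were positive in the last 2 comparisons, and none was called. None of 6 white adipocyte markers was called either, but all 6 had positive values in TV against NTV, with a median of 1.56 and 3 at an unadjusted p under 0.05. Their summed level was 61.8 to 786.5 FPKM in TL, 116 to 625 FPKM in TV and 45.2 to 185.5 FPKM in NTV, so the groups overlapped, and the median was 1.78 in TL against NTV. Of 6 brown adipocyte markers, Cox7a1, which muscle also expresses, fell, and of 3 satellite cell markers Cdh15 rose. The part of these features in the changes of the ribosomal protein genes was not tested. Ucp1, the defining gene of brown fat, exceeded 2 FPKM in TL replicates 1 and 5 (58.3 and 3.97 FPKM) and NTV replicate 5 (53.4 FPKM) and was at 0 in TL replicate 7 and TV replicate 6. Without those 3 libraries, 30 members fell and 1 rose in TV against NTV, and 8 fell in TL against NTV. Over all genes, 17.4% and 5.58% were called in either direction, with 1047 and 437 of the 12754 genes tested lower.

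The rest of the mitochondrial translation machinery is given for comparison. Over all genes tested, 11.5% were lower and 13.8% higher in TV against NTV, and 4.62% and 4.19% in TL against NTV. These shares stand beside the counts of every list that follows. Of 19 translation factors and translational activators, 9 fell and 0 rose in TV, with a median of -0.36. The largest falls were those of Taco1, an activator of cytochrome oxidase subunit translation (-1.35 ± 0.17, adjusted p = 0.00107), of Tsfm, an elongation factor (-0.97 ± 0.16, adjusted p = 0.00250), and of Mtif2, an initiation factor (-0.81 ± 0.11, adjusted p = 0.00122). Taco1 averaged 22.9 ± 3.90 FPKM in TL, 16.3 ± 4.00 FPKM in TV and 41.4 ± 3.62 FPKM in NTV (SD, n = 4 each). In TL against NTV 8 of the 19 fell, among them Taco1 (-0.85), Mtif2 (-0.64) and Tsfm (-0.62). Of 24 assembly factors and rRNA modifying enzymes, 6 fell and 1 rose in TV. The rRNA methyltransferases Mrm1 (-1.20 ± 0.22, adjusted p = 0.00349) and Mrm2 (-0.88 ± 0.20, adjusted p = 0.00843) fell furthest, and Malsu1, an assembly factor of the large subunit, rose (0.59 ± 0.13, adjusted p = 0.00722). In TL against NTV, 2 assembly factors fell and 1, again Malsu1, rose. Of 5 ribosomal proteins that carry other names, Ptcd3, which binds mRNA on the small subunit, fell in TV (-0.74 ± 0.12, adjusted p = 0.00217) and 4 were not called. None of the 5 was called in TL against NTV.

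Of 16 genes of mitochondrial transcription and RNA processing, 4 fell and 0 rose in TV, led by Mterf2, a DNA-binding protein (-1.43 ± 0.23, adjusted p = 0.00210), Tefm, an elongation factor (-0.58 ± 0.10, adjusted p = 0.00229), and Twnk, the replicative helicase (-0.52 ± 0.15, adjusted p = 0.0228). Twnk shares 507 exon bases with Mrpl43 on the opposite strand, at means of 9.60 and 35.98 FPKM, so the value of Twnk is uncertain. Both mitochondrial rRNAs fell in these poly(A)-selected libraries: mt-Rnr1 averaged 562 ± 271 FPKM in TL, 456 ± 56.3 FPKM in TV and 976 ± 174 FPKM in NTV (SD, n = 4 each; -1.09 ± 0.30, adjusted p = 0.0217 for TV against NTV), and mt-Rnr2 was at -0.94 ± 0.27, adjusted p = 0.0282. Of the 13 mRNAs of the mitochondrial genome, 5 fell in TV, with a median of -0.78. Nuclear genes of the respiratory chain and ATP synthase fell in 33 of 81 cases and rose in 2 (median -0.42). Cytosolic ribosomal proteins went the other way in TV: 60 of 79 rose, 0 fell, and the median was 0.71. In TL against NTV, 1 of the 16 transcription and RNA processing genes fell (median -0.06). So did 0 of the 2 rRNAs (median -0.84) and 1 of the 13 mitochondrial mRNAs (median -0.58). There, 9 of the 81 respiratory chain and ATP synthase genes fell (median -0.32), and 16 of the 79 cytosolic ribosomal proteins rose (median 0.43).

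Among 9 regulators of nuclear genes for mitochondrial proteins, 3 rose and 2 fell in TV. Esrra, the nuclear receptor ERR alpha, averaged 36.8 ± 7.55 FPKM in TL, 27.7 ± 3.90 FPKM in TV and 52.5 ± 2.97 FPKM in NTV (SD, n = 4 each) and fell (-0.92 ± 0.15, adjusted p = 0.00227). Ppargc1b, a coactivator of mitochondrial biogenesis, also fell (-0.98 ± 0.19, adjusted p = 0.00447), whereas its relative Ppargc1a was not called (0.37 ± 0.30, adjusted p = 0.400). Myc (1.48 ± 0.46, adjusted p = 0.0349), Nrf1 (0.48 ± 0.11, adjusted p = 0.0109) and Pprc1 (0.42 ± 0.12, adjusted p = 0.0265) rose. Myc had 3.55, 5.20, 1.38 and 4.09 FPKM in TL, 13.6, 3.05, 2.95 and 9.50 FPKM in TV, and 1.92, 1.91, 2.28 and 1.25 FPKM in NTV. Its TV values were thus widely spread, with replicates 3 and 8 highest. The genes for GABP, Gabpa and Gabpb1, and Yy1 were not called. In TL against NTV, 1 of the 9 regulators rose (Nrf1) and 2 fell (Esrra and Ppargc1b).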

How the data were processed

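RNA of 12 gastrocnemius muscles was analysed, 4 each of TL, TV and NTV. Per the labels' protocols, mRNA was captured by its poly(A) tail and primed at random. Of tools, featureCounts 1.5.0-p3, HISAT2 2.05 and DESeq2, and of builds mm10, are named in the submitters' processing notes; settings, and whether counting used strand, are not given in the sources used here. The authors deposited FPKM values for 54532 genes in 1 table, with gene length in bases, and alignment, counting and scaling had been done before. FPKM times length was a whole number of reads for 100% of values, within a tolerance of 0.1 read. The implied scale between libraries was that of median-of-ratios size factors (relative difference at most 5.27e-11), which assumes that most genes do not differ. No 2 libraries of a group agreed within counting error (lowest chi-square per degree of freedom 16.4 over 18 pairs). The limit of 3 reads for a gene at 0 covers counting error only.

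On log2(FPKM + 0.5), limma 3.58.1 (R 4.3.3) fitted the 3 group means over all 12 libraries, with its trend option; p-values were adjusted by Benjamini-Hochberg over 12754 genes averaging at least 0.5 FPKM, and calls needed an adjusted p under 0.05. The added constant understates changes of low genes. In parentheses, values are the log2 change ± SE. Separation counts compare the 4 values of each group. The fit was tested on simulated data. Alternatives were other pseudocounts, filters, scalings and variance models, voom on the recovered reads, a replicate block, fits without libraries with Ucp1 above 2 FPKM and each library left out; leaving out genes that share over 10% of exon bases was added after seeing the data.

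Members, lists, tests and the rule for named genes were chosen with earlier results of these data known. The rule takes up to 8 called members with the largest rise and fall per comparison, or the 3 largest changes as values. It adds the 4 highest and 4 lowest means, the Mrps18 paralogues, the stalk, Mrps6, Mrps12, Mrps36 and Mrpl45. Of known disease genes it takes only Mrpl3, Mrpl44, Mrps16 and Mrps22, and of each other list up to 3 called genes. Mrps11, Mrps15, Mrpl39 and genes that complete a count of 6 or fewer were added after their values were seen. Of 221 listed symbols, 220 were found. Cytosolic ribosomal proteins and respiratory chain genes were taken by symbol pattern. Gene positions are those of the deposited table; exon overlaps came from GENCODE M21, in which 73 of the 78 members had the same coordinates, and promoters from RefSeq. Tables and figures were made with pandas 2.3.3, numpy 2.4.6 and matplotlib 3.10.9 in Python 3.11.15.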

Additional observations from a re-analysis of the deposited data

Results flagged for a closer look

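In groups of 4 libraries, a value was listed here when its gap to the nearest other, divided by the range of the group, exceeded the 95% critical value of Dixon's test for 4 samples. The 26 named members with values were examined in the 3 groups, 78 groups in all, and chance alone gives about 1 in 20, so 3 values are no more than chance would give. Mrpl23 had 20.3 FPKM in TV replicate 8, beside 16.9 to 17.1 FPKM in the other TV libraries. Mrps25 had 3.51 FPKM in TL replicate 5, beside 2.62 to 2.73 FPKM in the other TL libraries, and 69.8% of its exon bases are shared with Nr2c2 on the opposite strand. Mrps35 had 2.05 FPKM in TV replicate 3, beside 2.40 to 2.46 FPKM in the other TV libraries.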

How the results depend on the processing

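Each result was computed again under 12 other settings, a replicate block and 12 fits without 1 library. No change of a named member reversed its sign where it was called, and 18 of the 35 calls in TV against NTV and 2 of the 10 in TL against NTV were kept in every fit other than the block. Calls numbered 19 to 37 in TV against NTV, 0 to 1 in TL against TV and 3 to 13 in TL against NTV over the fits without 1 library, against 35, 0 and 10 with all; the medians ran from -0.319 to -0.243, 0.0376 to 0.105 and -0.244 to -0.161. At an equal total FPKM, calls numbered 23 in TV against NTV and 5 in TL against NTV, where the median was -0.0696. With totals made equal after leaving out mitochondrial genes and the 50 of highest level, the median was -0.377 in TV against NTV and 0.171 in TL against TV. Without members sharing over 10% of exon bases, chosen after seeing the data, 5 of 61 were called in TL against NTV. Other settings kept the count within 1.5 times. The cause of these shifts was not tested. Replicate numbers in the labels are shared by few libraries of different groups. Deviations of libraries that share a number correlated by 0.014 to 0.133, inside the -0.227 to 0.238 of other pairs. With so few pairs, this cannot show whether the numbers pair the samples. With the replicate number as a block, 0 members and 0 of all genes were called in each comparison, and the median in TL against TV was 0.179. That fit has nearly as many terms as libraries, so few calls were possible and none can be read from it. Mrpl53, at 0 reads in every library, could not be tested; whether depth or its shared exon bases gave that value was not tested.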
